A study of Mus musculus with 6 samples.

Results

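Molecular chaperones are proteins that help other proteins fold, keep unfolded chains from clumping and hand them on to further folding or to degradation. The genes described here are the mouse chaperone genes of the HSP70, HSP90, J-domain, small heat shock, chaperonin, prefoldin and BAG families, compared between lymphoid cells that carried a wild type (WT) or an R98S mutant form of the ribosomal protein RPL10. They were chosen by gene symbol. The symbol had to start with Hspa, Hspb, Hsp90, Dnaja, Dnajb, Dnajc, Pfdn or Bag followed by a digit or subunit letter, or to be Hspd1, Hspe1, Hsph1, Tcp1 or one of Cct2 to Cct8, and pseudogenes were left out. Of 41255 genes listed, 91 matched by name. The mean normalized count over all libraries had to be at least 10, which 75 genes met and 16 did not. Hspb9, with a mean of 9.35, lay just outside that limit, and Dnajc28, with a mean of 20.5, was the closest member inside it. One member, Hspb11, carries a small heat shock protein symbol but is an intraflagellar transport protein.

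Ba/F3 cells, an interleukin-3 dependent mouse pro-B line, were transduced with a retrovirus that expressed human RPL10, either WT or the R98S form, in which serine replaces arginine 98. A short hairpin RNA against mouse Rpl10 was present in all clones, and in all of them cells were exposed to cycloheximide at 100 µg/ml for 5 min before pelleting. Each of 3 WT cultures (clones 28, 29 and 36) and 3 R98S cultures (clones 11, 13 and 35) had been grown from a single cell and gave 1 library, so every test measures the spread between such clones. In bulk samples of this kind, fewer cells of a type and less RNA per cell cannot be told apart.

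Between 21786776 and 24204991 reads per library were assigned to genes. The target of the hairpin, Rpl10, had normalized counts of 2853 (WT 28), 3156 (WT 29) and 1900 (WT 36), and of 3028 (R98S 11), 1883 (R98S 13) and 2617 (R98S 35), which overlapped (log2 fold change -0.07, limma adjusted p = 0.871). According to the paper, cultures had been selected by qPCR for knock-down of the endogenous gene. Human RPL10 was expressed in all clones, and the part of its reads in these counts was not tested. Of 13 genes listed for interleukin-3 dependent pro-B cells, 7 were above a floor of 3 reads, among them Csf2rb, Il3ra, Ptprc, Cd79a and Cd79b, whereas Kit, Cd34, Igll1, Vpreb1, Pax5 and Rag1 were not. The summed normalized count of the 13 was between 99404 and 119393 in WT and between 135975 and 160650 in R98S clones. Csf2rb (46530 to 60303 in WT, 67790 to 83429 in R98S clones) and Csf2rb2 (39754 to 42756 and 57287 to 70202) made up most of it. Ptprc went the other way (8869 to 14068 in WT, 3366 to 5657 in R98S clones), and Il3ra, Cd79a and Cd79b overlapped. Summed markers of other cell types were far lower: T cell genes (4 of 7 above the floor) reached at most 106 in WT and 179 in R98S clones, macrophage or neutrophil genes (5 of 6) 346 and 12.0, erythroid genes (2 of 5) 79.1 and 13.3, and fibroblast genes (4 of 5) 24.7 and 21.4. Their part in the results was not tested.

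Chaperones act in relays. HSP70 proteins bind short exposed stretches of a client, J-domain proteins (DNAJA, DNAJB and DNAJC) bring clients to HSP70 and trigger its ATPase, and HSP110 and BAG proteins release the nucleotide so that the client is let go. HSP90 then matures kinases and receptors, prefoldin passes actin and tubulin to the ring-shaped TRiC chaperonin, and HSPD1 with its lid HSPE1 forms the folding chamber of mitochondria. The transcription factor HSF1 raises many of these genes when unfolded protein accumulates, by binding heat shock elements, which are repeats of the blocks GAA and TTC.

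Members higher in R98S clones included the mitochondrial chaperonin genes Hspd1 and Hspe1 and, of the cytosolic HSP70 relay, Hspa8, Hsph1, Dnaja1 and Bag1. Other genes of that relay, such as Hspa4 and Dnajb1, did not pass (log2 fold changes 0.23 and -0.22). Members lower in R98S clones were all J-domain genes. Of these, Dnajb9 and Dnajc10 act in the endoplasmic reticulum (ER), and Dnaja2, Dnajb4 and Dnajc12 act as HSP70 partners outside it. Only some of these calls held when single clones were left out or when the shift of the chromosomal neighbours was subtracted, as given with each gene. Stretches upstream of or around the start of several members are shown first, for matches to the blocks of heat shock elements. Such elements are the known regulatory sequence of this gene family. Promoter windows of 250 bases before to 50 bases after each start were taken from RefSeq (GRCm38.p6), and 60 of the 75 members had a window. No window was listed for Hspa8, Dnajc2 or Dnajc12. Both strands were searched for 2 adjoining blocks, GAANNTTC or TTCNNGAA, and for 3 blocks, GAANNTTCNNGAA or TTCNNGAANNTTC, where N is any base. Each 3-block match also holds 2-block matches.

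These 6 stretches are written 5′ to 3′ on the strand of the gene, with the GAA and TTC blocks in capitals. Positions are those of the first capital base counted from the start site, negative upstream.
Hspe1, chr1:55088053-55088082, plus strand, position -89, 4 blocks: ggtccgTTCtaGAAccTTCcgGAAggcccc
Hsph1, chr5:149636351-149636380, minus strand, position -33, 2 blocks: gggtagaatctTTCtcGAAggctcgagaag
Hsph1, chr5:149636287-149636316, minus strand, position 36, 3 blocks: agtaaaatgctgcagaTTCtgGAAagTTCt
Dnaja1, chr4:40722333-40722362, plus strand, position -124, 2 blocks: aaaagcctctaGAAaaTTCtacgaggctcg
Dnajb6, chr5:29735844-29735873, plus strand, position -46, 3 blocks: agctccgaGAAtcTTCcgGAAcgctagacc
Dnajc10, chr2:80315273-80315302, plus strand, position -182, 2 blocks: aacaattttatTTCtaGAAaactttaatta

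The Hspe1 stretch lies upstream of Hspe1 and near the start of Hspd1, which is transcribed the other way, and the same bases read on the minus strand stood at position -144 of an Hspd1 start. Hspe1, Hsph1 and Dnaja1 were higher in R98S clones, Dnajc10 was lower, and Dnajb6 did not pass the test. A 2-block match was present in 12 of 60 members with a window (20%), against 14% of 8430 tested genes and 17% of all 27025 genes with a window. For 3 blocks the counts were 4 of 60 members (6.67%), against 0.581% of the tested genes and 0.662% of all genes. The 4 members with 3 blocks were Hspd1 and Hspe1, which share 1 stretch, Hsph1 and Dnajb6. Among members higher in R98S, 4 of 10 with a window held 2 blocks and 3 held 3 blocks, and among those lower in R98S, 2 of 4 held 2 blocks and 0 held 3. Of 46 members that did not pass, 6 held 2 blocks and 1 held 3. These matches are letters in a window, and neither HSF1 binding nor its part in the results was tested.

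Values in each clone, as plotted in the map of all members, moved in both directions within most families. The members together took 1.78%, 1.81% and 1.64% of all normalized counts in the WT group (from here on, values are given for WT 28, 29, 36 and R98S 11, 13, 35 in that order), and 1.99%, 1.74% and 1.87% in the R98S group. The groups overlapped, with R98S clone 13 below 2 WT clones. HSP90 genes made up 39.4% ± 1.36 of the members' summed count in WT and 39.2% ± 1.39 in R98S clones (SD, n = 3), TRiC genes 22.8% ± 0.396 and 22.8% ± 0.947, and the mitochondrial chaperonin genes 3.77% ± 0.188 and 5.67% ± 0.780.

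**Figure D1:**
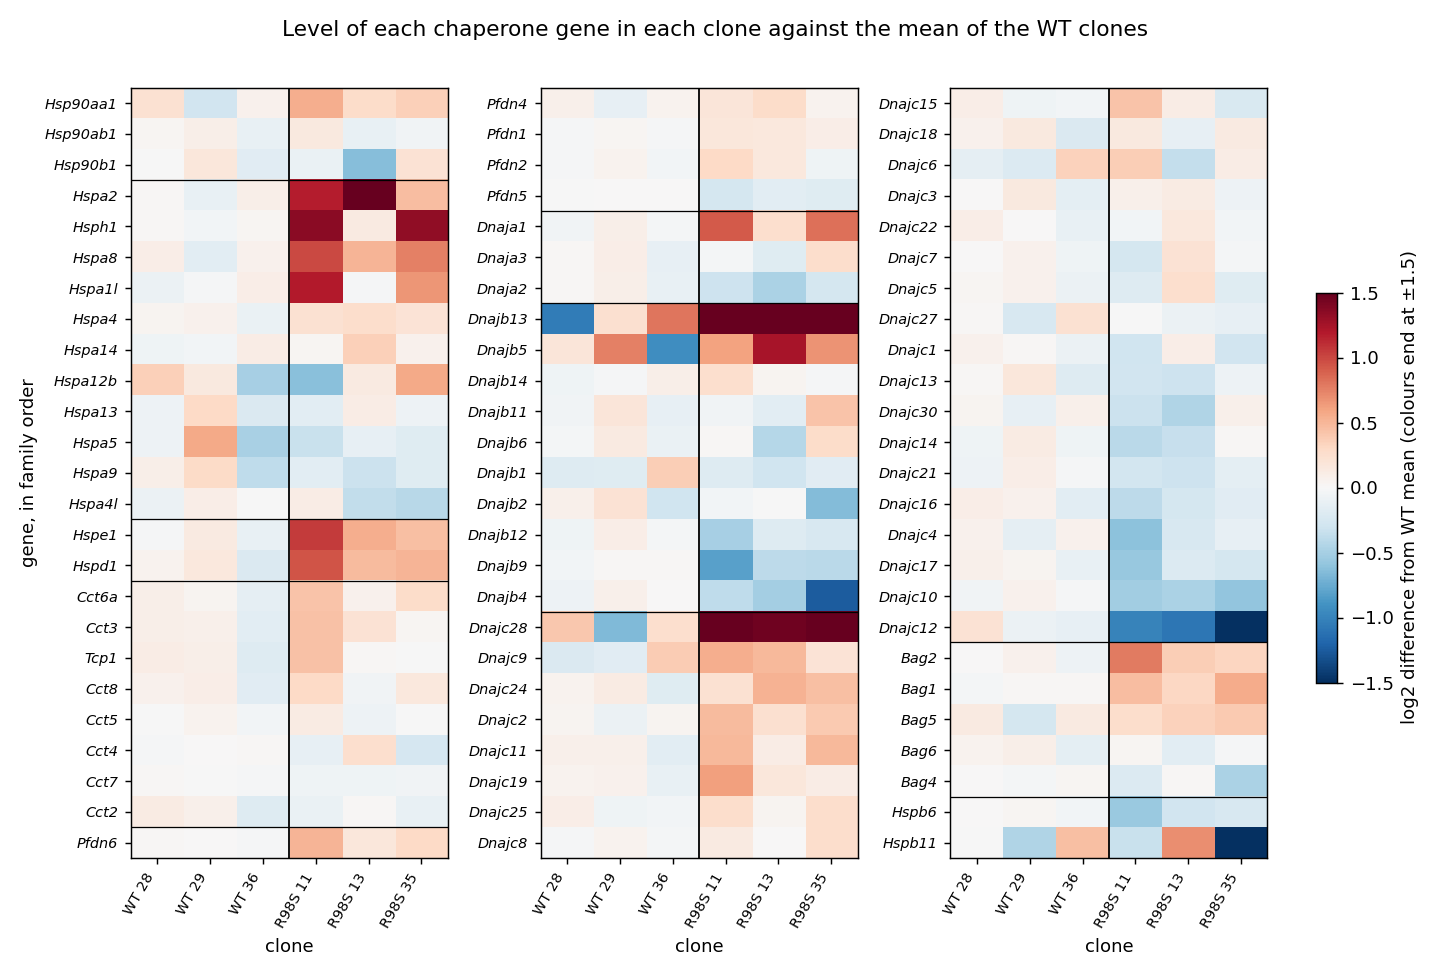
Each row is 1 of the 75 chaperone genes in family order and each column a clone, with colour giving the log2 difference of log2(normalized count + 1) from the mean of the WT clones (colours end at ±1.5). Hspa8, Hspd1, Hspe1, Bag1 and Bag2 are red in all 3 R98S clones, Hsph1 and Dnaja1 are darkest in clones 11 and 35, and Dnajc10 and Dnajc12 are blue in all 3.

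Differences were tested with limma on log2(normalized count + 1) over all 11550 genes with a mean of at least 10, at a Benjamini-Hochberg adjusted p under 0.1, two-sided. With this test 17 of the 75 members differed (22.7%), against 23.9% of all genes tested. Higher in R98S were 12 members (16.0%, against 10.7% of all genes), and lower were 5 (6.67%, against 13.1%). At a minimum mean of 50, which leaves out Dnajb13 and Dnajc28, 11 of 72 members were higher (15.3%, against 11.3% of all genes) and 5 lower (6.94%, against 14.4%). The share that differed was thus near the background when both directions were counted. R98S and WT clones did not overlap for 31 members (41.3%), against 37.3% of all genes, and these 31 included all 17. edgeR's quasi-likelihood test called 19 members (25.3%, against 23.8% of all genes) and DESeq2 20 (26.7%, against 26.3%), and both sets held all 17. The median log2 fold change of the members was 0.03, against -0.01 over all genes tested, and 41 of 75 lay above 0. Dnajb13 and Dnajc28 had WT means under 10 and entered only through their higher R98S values.

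**Figure D2:**
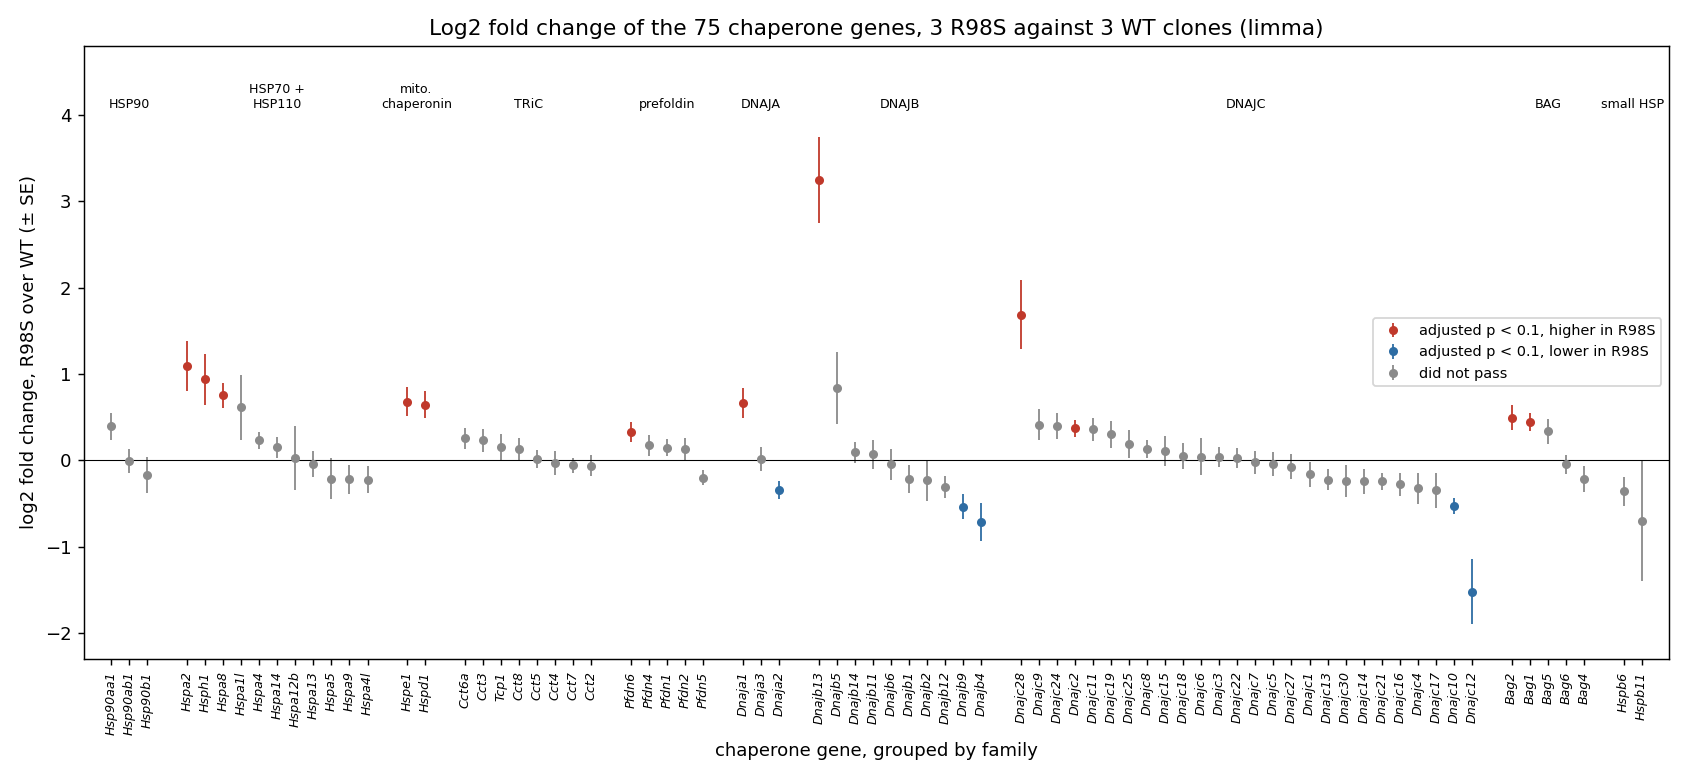
Points give the log2 fold change (R98S over WT) of each of the 75 genes and bars its standard error, grouped by family, with colour for genes higher (red) or lower (blue) at an adjusted p under 0.1. The 8 TRiC genes sit between -0.06 and 0.25, whereas DNAJB genes range from -0.71 to 3.25 and DNAJC genes from -1.52 to 1.68.

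Both genes of the mitochondrial chaperonin were higher in R98S clones. Gene positions are those of GENCODE on GRCm38. Hspd1 (chr1:55077835-55088243, minus strand), which encodes the HSP60 ring, had normalized counts of 11267, 12145 and 9335 in WT and 20906, 15058 and 15481 in R98S clones. Every R98S clone was above every WT clone, with clone 11 the highest (log2 fold change 0.64, SE 0.16, limma adjusted p = 0.0333). Hspe1 (chr1:55088132-55091307, plus strand), which encodes the lid of that chamber, had 4139, 4612 and 3869 in WT and 8675, 6131 and 5714 in R98S clones. Again the groups were separate and clone 11 was the highest (log2 fold change 0.68, SE 0.16, limma adjusted p = 0.0305). Summed over both genes, the level was 15122 ± 1793 in WT and 23988 ± 4843 in R98S clones (SD, n = 3), a ratio of 1.59. The ratio of Hspd1 to Hspe1 was 2.72, 2.63 and 2.41 in WT and 2.41, 2.46 and 2.71 in R98S clones, so that this ratio overlapped between the groups. Exons of both genes overlap on opposite strands over 112 bases. Of the 50-base windows of each gene's transcripts, 44.8% also occur in transcripts of other genes, and reads there may have been lost to the mapping filter.

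Among the 30 tested genes nearest to this gene pair, 26 had a log2 fold change above 0, with a median of 0.35. After that shift was subtracted in each clone, the log2 fold change was 0.29 for Hspd1 (limma adjusted p = 0.254) and 0.33 for Hspe1 (limma adjusted p = 0.148), and neither passed. No other mitochondrial member passed in limma. Hspa9, the mitochondrial HSP70, had 15777, 18071 and 11384 in WT and 13218, 11881 and 13103 in R98S clones (log2 fold change -0.22, limma adjusted p = 0.411), and without WT clone 36 it was called lower (limma adjusted p = 0.0671). Of 8 members placed in mitochondria, 2 were higher and 0 lower, against 10.7% and 13.1% of all genes tested. The other 6 did not pass, and the median log2 fold change of the 8 was 0.20. At an unadjusted p under 0.05, and in edgeR and DESeq2 alike, 3 were higher.

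In the HSP70 and HSP110 family, 3 of 11 members were higher and 0 lower, against 10.7% and 13.1% of all genes tested. Hspa8 (chr9:40800984-40810087, plus strand), the constitutive HSP70 that also strips clathrin from vesicles, had normalized counts of 1123, 941 and 1102 in WT and 2086, 1504 and 1784 in R98S clones. The lowest R98S clone was well above the highest WT clone (log2 fold change 0.75, SE 0.15, limma adjusted p = 0.0154). Hspa8 passed under every alternative run, with log2 fold changes between 0.64 and 0.87. Of its 50-base windows, 74.8% are shared with transcripts of other genes, so that its deposited count may be an underestimate of its level in all clones.

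Hsph1 (chr5:149614287-149636376, minus strand), the HSP110 protein that exchanges nucleotide on HSP70, had 1843, 1775 and 1858 in WT and 4651, 2007 and 4604 in R98S clones. Clones 11 and 35 stood far above the WT clones, and clone 13 lay only slightly above them (log2 fold change 0.94, SE 0.29, limma adjusted p = 0.0671). Without clone 13 the log2 fold change was 1.34, and leaving out any of the other 5 clones ended the call, with a highest adjusted p of 0.205. The ratio of Hsph1 to Hspa4, a second HSP110 gene, was 0.191, 0.181 and 0.212 in WT and 0.423, 0.178 and 0.424 in R98S clones, which places clone 13 among the WT clones. Hspa4 itself had 9669, 9828 and 8746 in WT and 10989, 11299 and 10854 in R98S clones. All R98S values were above the WT values, but the difference did not pass (log2 fold change 0.23, limma adjusted p = 0.143). It passed with equal upper quartiles (0.27, limma adjusted p = 0.0855). Subtraction of the regional shift also gave a call (0.30, limma adjusted p = 0.0718).

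Hspa2 (chr12:76404176-76406938, plus strand), an HSP70 best known from the testis, had low counts of 117, 106 and 122 in WT and 262, 357 and 159 in R98S clones. The WT clones lay close together and the R98S clones spread widely above them (log2 fold change 1.09, SE 0.29, limma adjusted p = 0.0401). The call was lost without WT clone 28, WT clone 29 or R98S clone 11, with a highest adjusted p of 0.123. Hspa5, the ER HSP70 also known as BiP, had 20027, 31309 and 15055 in WT and 16821, 19393 and 18560 in R98S clones, and all R98S values fell within the WT range (log2 fold change -0.21, limma adjusted p = 0.576). WT clone 29 had the highest and WT clone 36 the lowest value of all clones, and without WT clone 29 the log2 fold change was 0.07. Hspa1a and Hspb1, stress-inducible genes of the HSP70 and small heat shock families, had at most 1 read in any library, as did Bag3, and Hspa1b had 0 reads. Of their 50-base windows, 66.3% for Hspa1a, 62.3% for Hspa1b and 51.6% for Hspb1 are shared with transcripts of other genes, so that reads may have been lost to the mapping filter, against 0% for Bag3.

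Of the 39 J-domain members, 4 were higher and 5 lower in R98S clones, near the shares over all genes tested (10.7% and 13.1%). The 4 include Dnajb13 and Dnajc28, which met the minimum mean only through their R98S values. Dnaja1 (chr4:40722150-40737149, plus strand), the main cytosolic partner of HSP70 of its class, had 2374, 2609 and 2416 in WT and 4675, 2927 and 4370 in R98S clones. As for Hsph1, clones 11 and 35 were the highest and clone 13 was nearest to the WT clones (log2 fold change 0.67, SE 0.17, limma adjusted p = 0.0390). Its close relative Dnaja2 (chr8:85537633-85555344, minus strand) went the other way, with 5779, 6102 and 5306 in WT and 4613, 4130 and 4770 in R98S clones (log2 fold change -0.35, SE 0.11, limma adjusted p = 0.0617). Only 3 of the 30 genes nearest to Dnaja2 were above 0, with a median log2 fold change of -0.51, and with that shift subtracted Dnaja2 turned to 0.14 (limma adjusted p = 0.376). Dnaja1 had 24 of 30 neighbours above 0, with a median of 0.42, and with that shift subtracted it was at 0.28 (limma adjusted p = 0.263). The call of Dnaja1 was also lost without WT clone 28, R98S clone 11 or R98S clone 35 (highest limma adjusted p of 0.123), and that of Dnaja2 without WT clone 28, WT clone 29 or R98S clone 11 (highest 0.202). Summed over the 3 DNAJA genes, the ratio of R98S to WT was 1.03.

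The weakly expressed J-domain genes Dnajb13 and Dnajc28 had the highest log2 fold changes of all members. Since both met the minimum mean only through their R98S values, their adjusted p-values are no support for a difference. Dnajb13, a sperm flagellum protein, had normalized counts of 2.05, 6.45 and 10.01 in WT and 54.4, 52.1 and 72.2 in R98S clones (log2 fold change 3.25, SE 0.50, limma adjusted p = 0.00696). Its exons overlap those of Ucp2 on the opposite strand over 305 bases, and 10.1% of its 50-base windows are shared with that gene. Dnajc28 had 12.3, 5.37 and 11.0 in WT and 34.7, 26.5 and 33.3 in R98S clones (log2 fold change 1.68, SE 0.40, limma adjusted p = 0.0287). At these depths the WT levels rest on few reads, and the log2 scale with 1 added understates such differences. Dnajc2 (chr5:21757267-21785251, minus strand), a ribosome-bound J-domain protein that meets chains as they leave the ribosome, had 3920, 3589 and 3910 in WT and 5283, 4501 and 4976 in R98S clones. The groups did not overlap and the difference was small (log2 fold change 0.37, SE 0.10, limma adjusted p = 0.0483). It was lost without WT clone 28, WT clone 29, R98S clone 11 or R98S clone 35, with a highest adjusted p of 0.167.

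The lower J-domain genes included both ER members that passed. Dnajc10 (chr2:80315466-80354043, plus strand), an ER reductase that opens wrong disulfide bonds, had 3400, 3715 and 3509 in WT and 2460, 2537 and 2348 in R98S clones. Clones within each group lay close together (log2 fold change -0.53, SE 0.09, limma adjusted p = 0.0119). It passed under every alternative run, with log2 fold changes between -0.64 and -0.49. Dnajb9 (chr12:44205559-44210326, minus strand), a BiP partner induced by ER stress, had 890, 922 and 926 in WT and 520, 694 and 687 in R98S clones (log2 fold change -0.54, SE 0.14, limma adjusted p = 0.0427). Its call was lost without WT clone 28 or WT clone 29, with a highest adjusted p of 0.126. Of 8 members placed in the ER, 0 were higher and 2 lower, against 10.7% and 13.1% of all genes tested. The other 6 did not pass, and the median log2 fold change of the 8 was -0.17. Dnajc3, the ER protein that inhibits the kinase PERK, had 2403, 2659 and 2160 in WT and 2527, 2621 and 2270 in R98S clones, which overlapped throughout (log2 fold change 0.04, limma adjusted p = 0.837).

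Outside the ER, Dnajc12 and Dnajb4 were lower. Dnajc12 (chr10:63382443-63410576, plus strand), a partner of HSP70 in the folding of aromatic amino acid hydroxylases, had 470, 379 and 371 in WT and 202, 191 and 71.2 in R98S clones. Clone 35 was the lowest (log2 fold change -1.52, SE 0.37, limma adjusted p = 0.0320). Dnajb4 (chr3:152178511-152210302, minus strand) had 908, 1005 and 957 in WT and 737, 671 and 402 in R98S clones, again with clone 35 the lowest (log2 fold change -0.71, SE 0.22, limma adjusted p = 0.0645). Dnajc12 was not called without WT clone 28 (limma adjusted p = 0.102), nor Dnajb4 without any 1 of the 3 WT clones (highest 0.164). Dnajb1, the main heat-inducible J-domain gene of the cytosol, had 1411, 1421 and 2083 in WT and 1403, 1308 and 1437 in R98S clones. WT clone 36 was high and the other 5 clones overlapped (log2 fold change -0.22, limma adjusted p = 0.390).

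**Figure D3:**
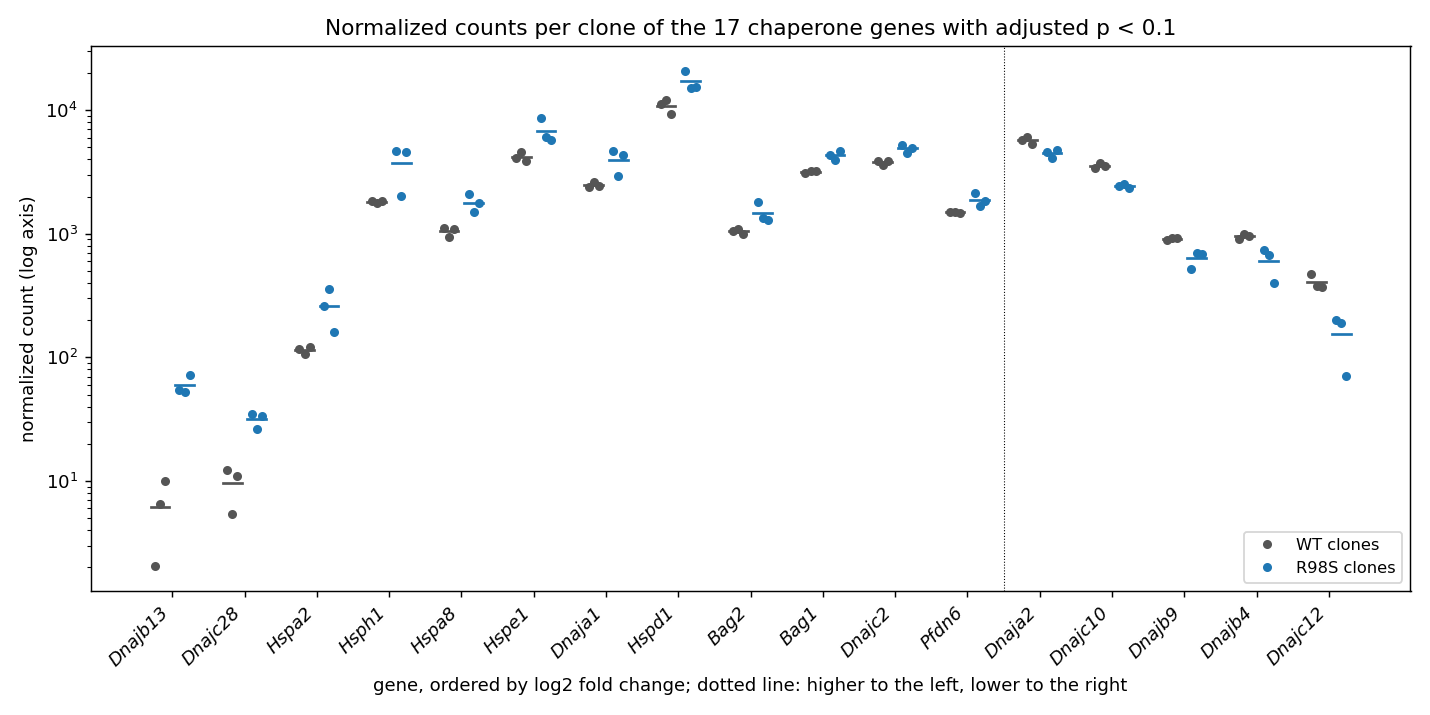
Points give the normalized count of each clone on a log axis for the 17 chaperone genes with an adjusted p under 0.1, grey for WT and blue for R98S, with a bar at each group mean. The groups do not overlap for any of the 17, and R98S clone 13 lies nearest to the WT clones for Hsph1 and Dnaja1.

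Of the 5 BAG genes, whose proteins are nucleotide exchange partners of HSP70, 2 were higher and 0 lower, against 10.7% and 13.1% of all genes tested. Bag1 (chr4:40936398-40948294, minus strand), which links HSP70 to the proteasome, had 3116, 3205 and 3214 in WT and 4367, 3952 and 4682 in R98S clones. The WT clones were nearly level and all R98S clones were above them (log2 fold change 0.44, SE 0.10, limma adjusted p = 0.0253). Bag1 lies 199248 bases from Dnaja1 and shares its neighbours, and with the regional shift subtracted its log2 fold change was 0.05 (limma adjusted p = 0.685). The call was also lost without WT clone 28 (limma adjusted p = 0.109). Bag2 (chr1:33745484-33757795, minus strand), an inhibitor of the HSP70 ubiquitin ligase CHIP, had 1050, 1095 and 994 in WT and 1801, 1352 and 1303 in R98S clones (log2 fold change 0.49, SE 0.14, limma adjusted p = 0.0561). With the regional shift subtracted it was at 0.27 (limma adjusted p = 0.166), and its call was lost without R98S clone 11 or any 1 of the 3 WT clones, with a highest adjusted p of 0.154. Bag6, which guards tail-anchored membrane proteins, had 4843, 4994 and 4243 in WT and 4782, 4195 and 4638 in R98S clones (log2 fold change -0.05, limma adjusted p = 0.798).

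**Figure D4:**
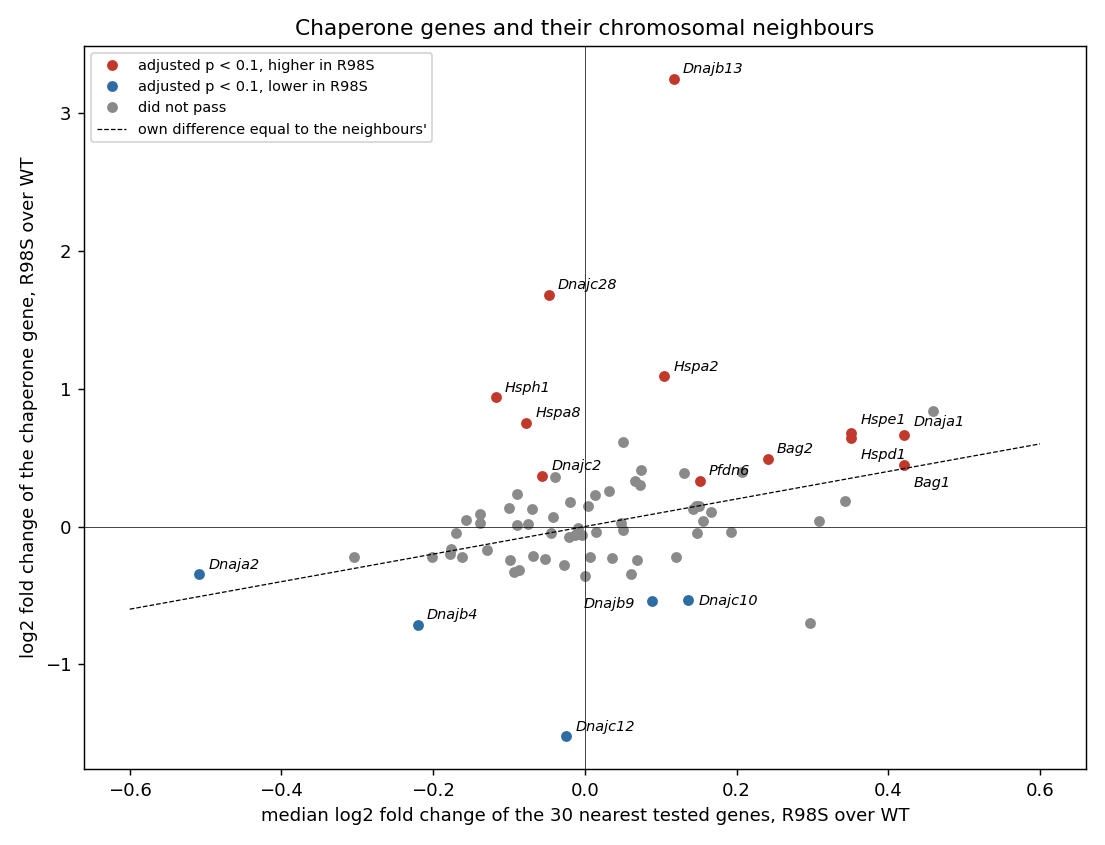
Each point is a chaperone gene, with the median log2 fold change (R98S over WT) of its 30 nearest tested genes on the x axis and its own on the y axis, and the dashed line marks equal values. Bag1 and Dnaja2 lie near that line, whereas Hspa8 and Hsph1 have neighbours with medians of -0.08 and -0.12.

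Of the 3 HSP90 genes, 0 passed in limma or edgeR, and 1 did in DESeq2 and at an unadjusted p under 0.05 in limma. Over all genes tested, 23.9% passed in limma, 23.8% in edgeR and 26.3% in DESeq2. Hsp90ab1, the constitutive cytosolic HSP90, had the highest count per length of the members with a transcript length. Its mean over the 6 clones was 41627 normalized counts per kb of its longest coding transcript. Reads lost to the mapping filter, as may be the case for Hspa8, are not corrected for in that ranking. The normalized counts of Hsp90ab1 were 106831, 111500 and 96982 in WT and 115845, 97105 and 101143 in R98S clones, overlapping throughout (log2 fold change -0.01, SE 0.14, limma adjusted p = 0.978). Hsp90aa1, the inducible cytosolic HSP90, had 37502, 26118 and 33364 in WT and 46541, 38681 and 40961 in R98S clones. All R98S values were above the WT values. The difference did not pass in limma (log2 fold change 0.39, limma adjusted p = 0.134) but did in DESeq2 (0.38) and in limma with the regional shift subtracted (0.32, limma adjusted p = 0.0910). The ratio of Hsp90aa1 to Hsp90ab1 was 0.351, 0.234 and 0.344 in WT and 0.402, 0.398 and 0.405 in R98S clones, with no overlap. Of the 50-base windows of Hsp90aa1, 58.5% are shared with transcripts of other genes, against 4.49% for Hsp90ab1. Hsp90b1, the ER HSP90, had 20045, 22600 and 17795 in WT and 18734, 12880 and 23326 in R98S clones, with both the lowest and the highest value in R98S (log2 fold change -0.17, limma adjusted p = 0.611).

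TRiC, the cytosolic chaperonin that folds actin and tubulin, is built of 8 different subunits. The log2 fold changes of its 8 genes lay between -0.06 and 0.25. Of these 8, 0 passed in limma, edgeR or DESeq2, against 23.9%, 23.8% and 26.3% of all genes tested. Whether 0 of 8 falls below these shares was not tested. At an unadjusted p under 0.05 the count was also 0. Summed over the 8 genes, the level was 91281 ± 5900 in WT and 95957 ± 6179 in R98S clones (SD, n = 3), a ratio of 1.05. Per kb of longest coding transcript, 7 subunits with a value lay between 4116 (Cct7) and 8510 (Cct5) normalized counts, a 2.07-fold range. Cct6a had the highest log2 fold change of the complex, with 8332, 8115 and 7178 in WT and 10535, 8214 and 9524 in R98S clones, and clone 13 fell between 2 WT clones (log2 fold change 0.25, SE 0.12, limma adjusted p = 0.197). Without R98S clone 13 it passed (limma adjusted p = 0.0720). Its exons overlap those of Psph on the opposite strand over 452 bases. Psph had 111, 94.6 and 95.1 in WT and 570, 604 and 674 in R98S clones, and the part of reads from that overlap in the Cct6a count was not tested.

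Among the remaining TRiC genes, Tcp1, Cct3 and Cct8 had log2 fold changes of 0.15 (limma adjusted p = 0.535), 0.23 (limma adjusted p = 0.274) and 0.13 (limma adjusted p = 0.510). Cct2, Cct4, Cct5 and Cct7 had values of -0.06 (limma adjusted p = 0.752), -0.04 (limma adjusted p = 0.882), 0.01 (limma adjusted p = 0.949) and -0.06 (limma adjusted p = 0.680). Only for Cct7 did the groups not overlap, at 10379, 10242 and 10151 in WT and 9784, 9831 and 9896 in R98S clones. In R98S clone 11, Tcp1, Cct3, Cct5, Cct6a and Cct8 were each at their highest of all 6 clones.

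Prefoldin, which catches actin and tubulin chains for TRiC, had 1 of 5 subunit genes higher, against 10.7% of all genes tested. Its remaining subunit, Vbp1, is counted among the partners of TRiC and prefoldin. Pfdn6 (chr17:33938821-33940343, minus strand) had 1510, 1500 and 1472 in WT and 2136, 1687 and 1846 in R98S clones, with nearly level WT clones (log2 fold change 0.33, SE 0.12, limma adjusted p = 0.0921). It was the call lost most often, under 9 of 17 alternatives, among them leaving out any clone other than R98S clone 13, with a highest adjusted p of 0.228 among these. With the regional shift subtracted its log2 fold change was 0.16 (limma adjusted p = 0.255). Pfdn5 had 3072, 3078 and 3075 in WT and 2560, 2754 and 2718 in R98S clones, which did not overlap, and did not pass (log2 fold change -0.20, limma adjusted p = 0.175). Pfdn2 overlapped between the groups (log2 fold change 0.13, limma adjusted p = 0.518). Small heat shock genes were represented by Hspb6 and Hspb11 alone. Hspb11 ranged from 58.3 to 531 across R98S clones and from 239 to 449 across WT clones (log2 fold change -0.70, limma adjusted p = 0.520).

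Among the 12 members higher in R98S, clone 11 held the highest R98S value for 9 and clone 13 the lowest for 9. Without R98S clone 13, 21 members were called, and without WT clone 28, WT clone 29 or R98S clone 11, 6, 9 and 11 were called. The share of all genes called in these fits is not given here, so such swings cannot be read as particular to the members. Hspa8 and Dnajc10 passed under all 17 alternatives. Dnajb13 and Dnajc28 passed under the 16 that gave them a value, which is no support for them, since they entered through their R98S values and have none at a minimum mean of 50. After subtraction of the regional shift, 16 members were called, of which 10 were among the 17. For that fit, too, the share of all genes called is not given here. The lost calls were Hspd1, Hspe1, Bag1, Bag2, Dnaja1, Dnaja2 and Pfdn6. The gained calls were Bag5 (0.33, limma adjusted p = 0.0578), Dnajc11 (0.37, 0.0615), Dnajc8 (0.24, 0.0863), Hsp90aa1 and Hspa4, all higher, and Hspa4l, lower (-0.39, 0.0590).

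Other folding genes, from lists that hold no member, were read from the same test. Of 23 genes for HSP90 partners and HSF1, 5 were higher and 0 lower, against 10.7% and 13.1% of all genes tested. The median log2 fold change of this list was 0.18. Ahsa1, which stimulates the HSP90 ATPase, had 4171, 2874 and 4249 in WT and 6420, 5431 and 7168 in R98S clones (log2 fold change 0.76, limma adjusted p = 0.0258). Every R98S clone was above every WT clone. The other genes that were higher were the HSP90 partners Chordc1 (log2 fold change 0.60), Ttc4 (0.59), Nudc (0.29) and Ahsa2 (0.42). With single clones left out, Ahsa1 and Ttc4 kept their calls in all 6 fits. Ahsa2 lost its call in all 6, Nudc in 5 and Chordc1 in 1, the fit without R98S clone 11. The number higher was 3 when R98S clone 35 or any WT clone was dropped. Dropping R98S clone 11 gave 2, and dropping clone 13 gave 8. Hsf1 itself had 942, 971 and 882 in WT and 1157, 871 and 1266 in R98S clones, and clone 13 was below all WT clones (log2 fold change 0.22, limma adjusted p = 0.367). No gene of this list was lower in edgeR or DESeq2 or at an unadjusted p under 0.05. Of 5 genes for HSP70 nucleotide exchange, 0 passed in limma, edgeR or DESeq2 and 0 had an unadjusted p under 0.05, with a median of -0.03.

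ER folding genes that passed were lower in R98S clones. Of 22 tested, 0 were higher and 8 lower in limma, against 10.7% and 13.1% of all genes tested. The median log2 fold change of the list was -0.39. At an unadjusted p under 0.05, 2 were higher and 12 lower, edgeR called 0 and 7, and DESeq2 1 and 10. P4hb, the protein disulfide isomerase, had 47213, 50389 and 38287 in WT and 21913, 31490 and 18485 in R98S clones (log2 fold change -0.95, limma adjusted p = 0.0220). The groups did not overlap, and the gap between them was smaller than the range within either. Edem1, which sends misfolded glycoproteins to degradation, had a log2 fold change of -0.66 and did not overlap between the groups. The other log2 fold changes were, for the lectin chaperone gene Calr -0.43, the oxidase gene Ero1lb -0.62, Herpud1 -0.52, Fkbp2 -0.50, and for the stress transcription factor genes Xbp1 and Ddit3 -0.58 and -1.14. Xbp1 had 4785, 6307 and 4320 in WT and 2750, 4523 and 3107 in R98S clones, and Ddit3 558, 1196 and 455 against 265, 376 and 282. WT clone 29 was the highest WT clone for all 8 genes, and for Xbp1 and Herpud1 WT clone 36 lay below R98S clone 13. With single clones left out, the number lower was 3 when either WT clone 28 or 29 was dropped and 10 when WT clone 36 was. Dropping R98S clone 11 gave 2, clone 13 gave 9 and clone 35 gave 5. P4hb and Edem1 kept their calls in all 6 fits, whereas the other 6 genes each lost theirs in 2 to 4. Within the chaperone genes, Dnajb9 and Dnajc10 had the same sign as the median of this list. Hspa5 and Hsp90b1 had that sign too (-0.21 and -0.17) but overlapped between the groups. Dnajb11 and Dnajc3 lay slightly above 0 (0.07 and 0.04). Of 8 mitochondrial protease and folding genes, 0 were higher and 2 lower, against 10.7% and 13.1% of all genes tested, with a median of -0.21. Both edgeR and DESeq2 also called 0 higher and 2 lower, and 1 was higher and 3 lower at an unadjusted p under 0.05. The 2 lower in limma were Lonp1 and Atf5. Lonp1, the matrix protease, had 13109, 15016 and 11081 in WT and 6541, 6996 and 5236 in R98S clones (log2 fold change -1.06, limma adjusted p = 0.00553). Atf5 is a transcription factor gene (log2 fold change -1.86, limma adjusted p = 0.0126). Hspd1 and Hspe1 thus had the opposite sign to both.

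Of 20 partners and clients of TRiC and prefoldin, 2 were higher and 3 lower, near the shares over all genes tested (10.7% and 13.1%). The median log2 fold change of this list was -0.10. Pdcl, a TRiC cofactor, and Pdrg1, a prefoldin-like subunit, were higher, by 0.76 and 0.58 on the log2 scale. The clients Actb, Tuba1a and Tuba1c were lower, with log2 fold changes of -0.42, -0.74 and -0.65, while the 8 genes of TRiC did not pass. With single clones left out, Pdcl kept its call in all 6 fits, Pdrg1 lost it without WT clone 28 (limma adjusted p = 0.105), Tuba1c when R98S clone 11 was dropped (0.123), Tuba1a in 4 fits and Actb in 5 (highest 0.238 and 0.301).

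**Figure D5:**
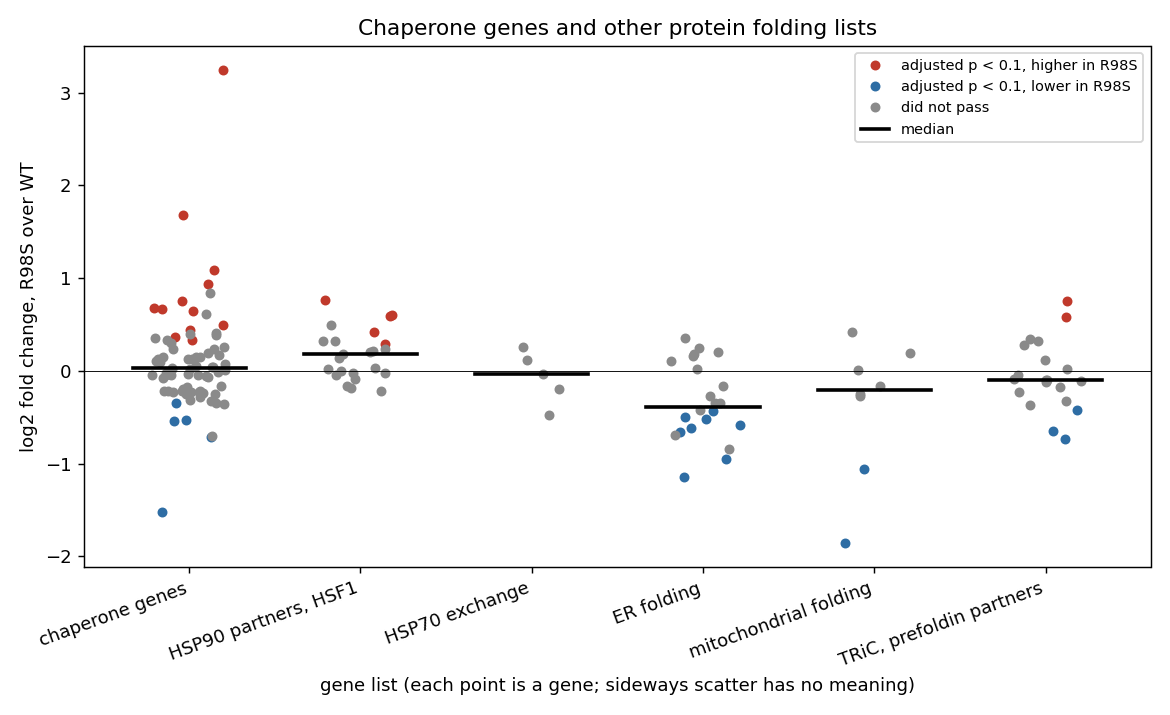
Points give the log2 fold change (R98S over WT) of each tested gene in the chaperone families and in 5 other folding lists, coloured by the limma call, with a bar at each median. The ER folding list has its median at -0.39 with 8 genes lower and 0 higher, and the list of HSP90 partners and HSF1 has its median at 0.18 with 5 higher and 0 lower. Over all genes tested, 10.7% were higher and 13.1% lower.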

How the data were processed

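Polyadenylated RNA of 6 Ba/F3 clones was made into strand-specific libraries. The authors removed reads of ribosomal and transfer RNA with Bowtie2, aligned the rest to mm10 and its spliced transcripts with TopHat, kept primary alignments above a mapping quality limit and counted exon reads per gene. SAMtools, HTSeq and DESeq2 are named in the submitters' processing notes without a role, and the annotation and the strand setting of the counting are not given in the sources used here. In the deposited table each gene has a signal value, the read count scaled by a DESeq2 size factor of its library, called normalized count here. The mapping filter lowers genes with near-identical copies.

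All values above 0 were whole multiples of 1 step per library within a tolerance of 1e-06 reads (100% of values), so reads were recovered by division. The step of WT clone 36, 1.0008, was near 1. Columns of per-sample values without a sample numbered 0. Libraries of a group were not duplicates (chi-square over degrees of freedom between 18.7 and 65.2), and depth was similar, so spread between clones set the precision.

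Groups came from the labels. limma 3.58.1 (R 4.3.3) was fitted to log2(normalized count + 1) with an intensity trend for genes with a mean of at least 10, two-sided, with Benjamini-Hochberg adjustment over all genes tested and a threshold of 0.1. The unit of the file was as planned, and edgeR 4.0.16 (quasi-likelihood) and DESeq2 1.42.0 (Wald) on the recovered reads were alternatives, beside those in the closing section. On simulated data with known changes the limma step was tested before use. Genes were placed on GRCm38 with GENCODE, and shared 50-base windows were counted over annotated transcripts.

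The members, lists and tests were chosen with earlier results of these data known. Members named whatever their values are Hspa1a, Hspa1b, Hspa4, Hspa5, Hspa8, Hspa9, Hspb1, the 3 HSP90 genes, Hspd1, Hspe1, Hsph1, Dnaja1, Dnajb1, Dnajb9, Dnajc3, the 8 TRiC genes, Pfdn2, Pfdn5, Bag1, Bag3 and Bag6, with the non-members Hsf1 and Psph. Every other member with an adjusted p under 0.1 is also named, up to the 15 highest and 15 lowest. Hspb6, Hspb9, Hspb11, Dnajb6, Dnajb11, Bag5, Dnajc8, Dnajc11, Hspa4l and the genes named from other lists were chosen after their values were seen, as were the members placed in the ER and in mitochondria and the subtraction, in each clone, of the median deviation of the 30 tested genes nearest to a gene (the regional shift). One listed cell type marker is not reported here.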

Additional observations from a re-analysis of the deposited data

How the results depend on the processing

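No paired analysis was possible because no clone number occurs in both groups. Over 17 alternatives (edgeR, DESeq2, a threshold of 0.05, no intensity trend, equal totals, equal upper quartiles, pseudocounts of 0.5 and 5, all genes kept, a minimum mean of 50, each clone left out, and the regional shift subtracted, which was chosen after seeing the data), the median log2 fold change of the members moved by less than the spread between clones. Leaving out 1 clone gave between 6 (WT clone 28) and 21 (R98S clone 13) called members against 17, between 5 and 15 higher, and between 1 and 6 lower. The count lower was 3 with no intensity trend and 3 at an adjusted p under 0.05. For ER folding genes lower, single clones left out gave 2 to 10 against 8, and for HSP90 partners higher 2 to 8 against 5, also chosen after seeing the data. Shares of all genes called with a clone left out are not given here. These ranges therefore cannot be read as particular to the members or lists. Of 610 gene values, 528 kept their direction and side of the threshold, 51 lost a call, 6 gained one and 25 changed direction. Of the genes that changed direction, Dnaja2 alone had been called, at 0.14 with the regional shift subtracted. Leaving out 1 clone gave -0.46 to 0.070 for Hspa5, -0.082 to 0.045 for Hsp90ab1, -0.37 to 0.060 for Hsp90b1, -0.034 to 0.12 for Dnajc3, -0.16 to 0.00047 for Cct2, -0.18 to 0.068 for Cct4, -0.040 to 0.058 for Cct5 and -0.12 to 0.0085 for Bag6. With the regional shift subtracted, Hsp90ab1 was at 0.010, Dnajb1 at 0.083, Dnajc3 at -0.10, Tcp1 at -0.017, Pfdn2 at -0.034 and Pfdn5 at 0.0099. Hsp90ab1 was at 0.013 with equal totals, 0.033 with equal upper quartiles and 0.0095 with edgeR, and Cct4 at 0.0040 with equal upper quartiles. The cause was not tested. Dnajb13 and Dnajc28 have no value at a minimum mean of 50. Members near 10 normalized counts rest on few reads in each library, which limits their precision.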
